A study of Homo sapiens with 18 samples.

Results

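Death ligands and death receptors are the proteins through which one cell can instruct another to die, and their mRNA was followed here in human fibroblasts made senescent by irradiation and then depleted of mitochondria. The 9 genes were picked by symbol for the roles of their proteins: the ligand TNFSF10, the receptors FAS, TNFRSF10A, TNFRSF10B, TNFRSF10C, TNFRSF10D, TNFRSF1A and TNFRSF1B, and the secreted receptor TNFRSF11B. They are 9 of 57500 genes in the deposited table, and all 9 were among the 16994 genes that passed the filter on low counts.

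A death ligand binds as a trimer and gathers receptor chains whose intracellular death domains recruit the adaptor FADD or TRADD and the initiator caspases. TNFSF10 encodes TRAIL, an interferon-inducible ligand used by natural killer cells and other immune cells. TNFRSF10A (TRAIL-R1) and TNFRSF10B (TRAIL-R2) pass its signal on, whereas TNFRSF10C and TNFRSF10D are decoys that bind TRAIL but lack a functional death domain, and TNFRSF11B (osteoprotegerin) is a soluble decoy better known for binding the bone-regulating ligand RANKL. FAS (CD95) and TNFRSF1A (TNFR1) carry death domains for FASLG and TNF, and TNFRSF1B (TNFR2) binds TNF without a death domain. Fibroblasts usually tolerate these ligands unless inhibitors such as CFLAR or the IAP proteins are lost, and FAS and the TRAIL receptors are known targets of p53.

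The cells were IMR90, an established line of human lung fibroblasts, made to overexpress Parkin so that the uncoupler CCCP triggers the removal of their mitochondria by mitophagy. PolyA RNA was sequenced from 18 libraries, 3 in each of 6 groups. Prol cells were proliferating and not irradiated. Sen (IR) cells were irradiated and senescent, Sen (IR) + CCCP cells were irradiated and then cleared of mitochondria, and further such cells received sodium acetate (a precursor of acetyl-CoA), transfected mitochondrial DNA (mtDNA), or both. The comparisons ask what senescence, mitochondrial clearance, and the return of acetate or mtDNA do to gene expression. All 4 groups with CCCP share irradiation and Parkin, and no group had CCCP without irradiation. No group is labelled as transfected without mtDNA or with other DNA, so effects of mtDNA and of transfection cannot be told apart. In the study's methods for such cells, acetate was given repeatedly after clearance, and mtDNA was transfected late in the culture. Between acetate and mtDNA, the kind of treatment and the length of exposure therefore cannot be told apart. The labels do not say whether replicates came from separate cultures. In the study, the legends of figures with RNA-seq heat maps of such cells define n as a count of independent experiments. Those legends do not name single libraries, and the p-values measure the spread between the libraries used here.

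Between 24624886 and 46224280 reads were assigned to genes in each library. Transcripts of the mitochondrial genome took 1.75% to 2.89% of counts in the Prol and Sen (IR) libraries and 0.0461% to 0.237% after CCCP, and MKI67, a proliferation marker, fell from 59.1 CPM (the count of a gene relative to the TMM-scaled total of its library) in Prol to 15.3 in Sen (IR) on average. All 8 fibroblast markers were found in every library, although their summed level was 37073 to 40791 CPM in Prol and 4709 to 6880 CPM in the 12 CCCP libraries. Markers of other cells were low: 4 leukocyte markers summed to at most 1.11 CPM, 3 endothelial markers to at most 0.964 CPM, and 4 epithelial markers to 27.9 to 30.5 CPM in Prol and at most 5.20 CPM after CCCP. Sen (IR) replicate 3 and mtDNA + acetate replicate 2 stood apart from their groups in a chi-square of counts between replicates, per degree of freedom. For Sen (IR) replicate 3 it was 27.2 and 22.1 against replicates 1 and 2, and 3.29 between those. For mtDNA + acetate replicate 2 it was 28.2 and 24.7 against replicates 1 and 3, and 3.33 between those. In mtDNA + acetate replicate 2, a list of 9 interferon-stimulated genes summed to 5061 CPM, against 1534 and 1601 CPM in replicates 1 and 3, and mitochondrial transcripts took 0.237% of counts, against 0.0640% and 0.0624%. Results that rest on mtDNA + acetate replicate 2 are given with and without it. Without Sen (IR) replicate 3, 80 of 81 member results kept their direction and side of the threshold, and 1 newly passed it. In these bulk libraries fewer cells that express a gene and less of its RNA per cell cannot be told apart.

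Of the 3 members that rose both with acetate and with mtDNA (TNFSF10, TNFRSF1B and TNFRSF10A), promoter sequence is shown for TNFSF10 and TNFRSF1B, which have an entry in the table used. The RefSeq promoter table (GRCh38.p14, 250 bases before each gene's start) was matched for 4 of the 9 members: TNFSF10, FAS, TNFRSF1A and TNFRSF1B. The windows were searched on both strands for the interferon-stimulated response element (ISRE, spelled GAAANNGAAA), the gamma-activated site (GAS, TTCNNNGAA), an NF-κB site and a p53 half-site. TNFSF10 held 1 ISRE match, 178 to 187 bases before its RefSeq start, and TNFRSF1B held 1 that ends at the last base before its RefSeq start. The RefSeq start of TNFSF10 lies inside the gene as annotated, so the sequence printed for it stops short of that start. No other motif was matched in these 2 windows, and none of the 4 in those of FAS and TNFRSF1A. Among all 35116 RefSeq promoters the ISRE letters were found in 3.02%, GAS in 6.57%, NF-κB in 9.96% and the p53 half-site in 5.57%. A match describes letters only. The sequences are shown on the strand of each gene, with the ISRE match in capitals. That of TNFSF10, on the minus strand, is chr3:172523476-172523680, up to the first annotated exon, and that of TNFRSF1B, on the plus strand, is chr1:12166741-12166990.
TNFSF10: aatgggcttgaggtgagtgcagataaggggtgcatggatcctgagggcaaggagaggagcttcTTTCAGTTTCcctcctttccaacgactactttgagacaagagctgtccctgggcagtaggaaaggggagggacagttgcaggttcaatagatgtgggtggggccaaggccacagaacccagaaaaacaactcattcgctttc
TNFRSF1B: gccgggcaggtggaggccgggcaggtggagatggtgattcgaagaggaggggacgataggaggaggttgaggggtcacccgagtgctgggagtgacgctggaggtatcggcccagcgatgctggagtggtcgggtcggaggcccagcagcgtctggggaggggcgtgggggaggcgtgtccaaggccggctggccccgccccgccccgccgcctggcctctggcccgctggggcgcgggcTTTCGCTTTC

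All 9 members differed between Sen (IR) and Prol: 7 were higher, where 26.7% of all genes tested were higher, and TNFSF10 and TNFRSF1B were lower, where 29.9% of all genes were lower (edgeR quasi-likelihood test, Benjamini-Hochberg adjusted p under 0.05, as throughout). CCCP lowered 6 members against Sen (IR), including the ligand, TNFRSF10B and both TNF receptors, and raised 2, FAS and TNFRSF10D. The background was 31.3% of all genes lower and 34.0% higher. Against Prol, Sen (IR) + CCCP had 4 members higher (FAS, TNFRSF10A, TNFRSF10D and TNFRSF11B; background 35.1%) and 3 lower (TNFSF10, TNFRSF10B and TNFRSF1B; background 34.1%). The median log2 change of the members was 0.58 for Sen (IR) against Prol and -0.48 for CCCP against Sen (IR), beside -0.01 and 0.03 over all genes tested.

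Acetate added to CCCP cells raised TNFSF10, TNFRSF10A, TNFRSF10B and TNFRSF1B, 4 members against a background of 28.8%, and lowered FAS, TNFRSF10C and TNFRSF1A, 3 members against 28.3%. mtDNA raised TNFSF10, TNFRSF10A and TNFRSF1B, 3 members against a background of 10.7%, and lowered 1, TNFRSF10D, against 7.40%. With both, 4 members were higher than in Sen (IR) + CCCP (TNFSF10, TNFRSF10A, TNFRSF10B and TNFRSF1B; background 30.3%) and 4 lower (FAS, TNFRSF10C, TNFRSF10D and TNFRSF11B; background 31.4%). The medians of the members were 0.22 with acetate, 0.05 with mtDNA and -0.10 with both, beside 0.01, 0.00 and -0.04 over all genes. The comparisons with Sen (IR) + CCCP share its 3 libraries, so their values are not independent of each other. Over all genes tested the median change was close to 0 with TMM scaling, but with library totals alone it was 0.29 (log2) for CCCP against Sen (IR) and 0.38 against Prol, and 0.40 and 0.46 with the deposited TPM. With library totals it was also -0.12 for acetate, -0.21 for both against Sen (IR) + CCCP and -0.13 for both against mtDNA. Small changes across the CCCP step therefore depend on the scaling, and those that turn are named below.

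**Figure D1:**
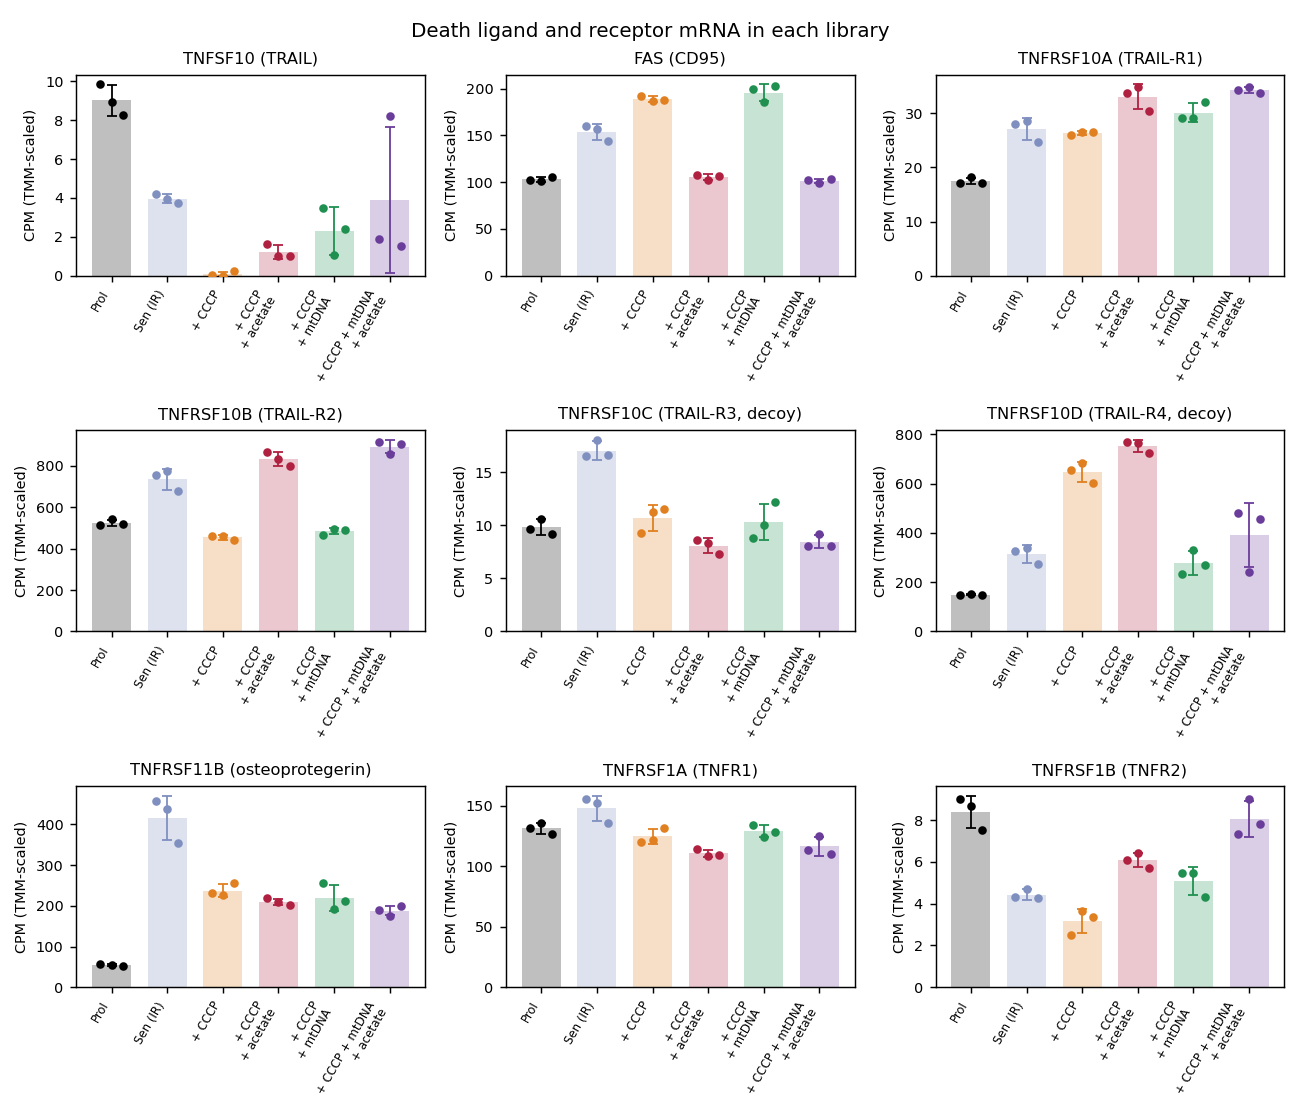
CPM (vertical axes, linear, each from 0) of the 9 genes in the 6 groups; points are the 3 libraries of a group from replicate 1 to 3, bars the mean and error bars the SD. TNFSF10 is lowest in Sen (IR) + CCCP, TNFRSF10B is high and FAS low in both groups with acetate, and TNFRSF10D is lower in both groups with mtDNA than in those without it after CCCP.

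TNFSF10, on chromosome 3 (GRCh38, 172505508 to 172523475, minus strand), encodes TRAIL, the ligand, and it changed over the widest range of the 9 genes. It was at 9.86, 8.96 and 8.26 CPM in Prol and 4.2, 3.95 and 3.72 CPM in Sen (IR), groups that did not overlap (log2 fold change -1.18, SE 0.38, adjusted p = 0.0114). In Sen (IR) + CCCP it nearly vanished, with 2, 0 and 6 counts in the 3 libraries. The pooled 8 counts give 0.0776 CPM, with an exact Poisson 95% interval of 0.0335 to 0.153 that covers counting error only. Against Sen (IR) the change was -5.60 (SE 0.79, adjusted p = 1.98e-06), and it was -7.03 without Sen (IR) + CCCP replicate 3, which holds 6 of the 8 counts, and -4.93 without replicate 2, which holds 0. The step from Prol to Sen (IR) was not called by DESeq2's Wald test (adjusted p = 0.131), nor on the deposited TPM.

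Acetate brought TNFSF10 to 1.62, 1.04 and 1.01 CPM, above every CCCP library (log2 fold change 3.86, SE 0.97, adjusted p = 0.0018). With mtDNA it was at 3.51, 1.04 and 2.42 CPM (4.83, SE 0.88, adjusted p = 4.18e-04). With both it was at 1.88, 8.24 and 1.54 CPM, and replicate 2 alone reached the level of Prol. The change against Sen (IR) + CCCP was 5.50 (SE 0.81, adjusted p = 4.42e-06), or 4.42 without that library (adjusted p = 4.46e-07). All 3 folds rest on the 8 counts of the CCCP group: without its replicate 3 they were 5.31, 6.27 and 6.96, and without its replicate 2 they were 3.20, 4.17 and 4.85.

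TNFSF10 rose with acetate while the interferon-stimulated genes did not. Of the 9 on the list, which was chosen with earlier results of these data known, none passed the threshold with acetate (summed level 223 to 249 CPM, against 228 to 250 CPM in Sen (IR) + CCCP), and all 9 rose with mtDNA (4396 to 6358 CPM). By edgeR's unadjusted p, 1 of these 9, IFIT1, was under 0.05 with acetate, and DESeq2's Wald test called 0.

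**Figure D2:**
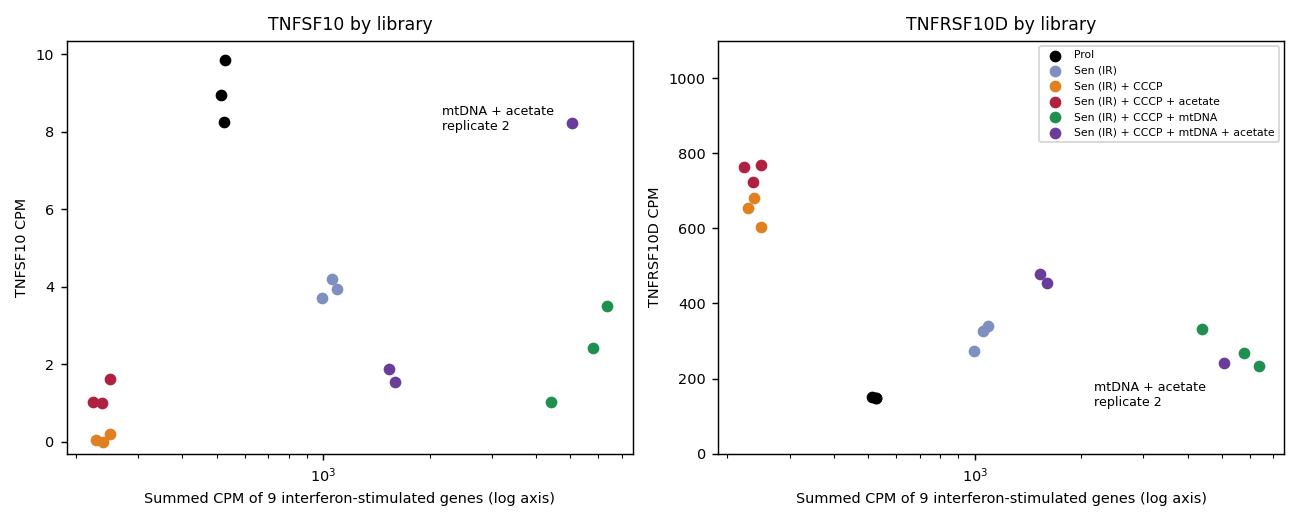
Level of TNFSF10 (left, CPM) and TNFRSF10D (right, CPM) in each of the 18 libraries against the summed CPM of 9 interferon-stimulated genes (log axis), coloured by group. The acetate libraries lie above the CCCP libraries in TNFSF10 at the same interferon sum, and mtDNA + acetate replicate 2, labelled, lies with the mtDNA libraries on the horizontal axis.

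Among the receptors with a death domain, TNFRSF10B (TRAIL-R2, chromosome 8, 23020133 to 23069031, minus strand) and FAS (chromosome 10, 88953813 to 89029605, plus strand) moved in opposite directions with acetate. TNFRSF10B was at 460, 461 and 442 CPM in Sen (IR) + CCCP and at 865, 836 and 801 CPM with acetate, with no overlap (log2 fold change 0.88, SE 0.05, adjusted p = 3.70e-12). FAS was at 192, 187 and 188 CPM in Sen (IR) + CCCP and at 108, 102 and 107 CPM with acetate, again with no overlap (-0.84, SE 0.05, adjusted p = 1.77e-12). Both genes are known p53 targets. With mtDNA present the same contrast was 0.88 for TNFRSF10B (917, 856 and 907 CPM with both, 468, 498 and 493 CPM with mtDNA, adjusted p = 4.00e-12) and -0.95 for FAS (102, 98.7 and 103 CPM with both, 199, 186 and 203 CPM with mtDNA, adjusted p = 3.80e-13).

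Both had risen with senescence. TNFRSF10B went from 512, 543 and 520 CPM in Prol to 755, 773 and 679 CPM in Sen (IR) (0.49, SE 0.05, adjusted p = 4.63e-08). FAS went from 102, 101 and 106 CPM to 160, 157 and 144 CPM (0.58, SE 0.05, adjusted p = 1.04e-09). With CCCP they parted: TNFRSF10B fell (-0.69, adjusted p = 8.92e-11) and FAS rose further (0.30, adjusted p = 8.09e-06). Sen (IR) + CCCP lay below Prol in TNFRSF10B (-0.21, adjusted p = 0.00114), but this small difference was 0.15 with library totals alone and 0.30 with the deposited TPM. The FAS levels with acetate lay at those of Prol: the difference was 0.04 with a 95% interval of -0.06 to 0.13, and with both it was -0.02 (interval -0.12 to 0.07).

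mtDNA alone left neither gene past the threshold. The change was 0.10 for TNFRSF10B (95% interval -0.00 to 0.20, adjusted p = 0.221), with groups that did not overlap, and 0.05 for FAS (interval -0.04 to 0.14, adjusted p = 0.520), with groups that did. The sign for FAS was negative with library totals and with TPM.

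FAS shares 387 exonic bases of the annotation with ACTA2 on the other strand and 166 with STAMBPL1 on its own strand. It shares a further 1899 with ENSG00000286116 on the other strand, which has no counts in these data. ACTA2 fell from 450 ± 28.7 CPM in Sen (IR) to 38.6 ± 2.74 CPM with CCCP and was at 124 ± 15.2 CPM with acetate (SD, n = 3), so it moved against FAS at both steps. STAMBPL1 moved with FAS at both. It rose from 67.9 ± 5.40 CPM in Sen (IR) to 94.9 ± 5.40 CPM with CCCP (0.48, adjusted p = 1.65e-07). With acetate it was at 74.6 ± 1.72 CPM (-0.35, adjusted p = 1.94e-05). TNFRSF10B shares 377 exonic bases with RHOBTB2 on the other strand, which stood at 28.4 ± 0.900 CPM in Sen (IR) + CCCP and 28.2 ± 1.51 CPM with acetate. The sources used here do not say whether counting used the strand, without which reads in bases shared across strands cannot be told apart. For the bases shared with STAMBPL1, on the strand of FAS, the strand would not tell them apart.

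TNFRSF10A (TRAIL-R1, chromosome 8, 23190452 to 23225102, minus strand), the second signalling receptor for TRAIL, was expressed far below TNFRSF10B, at 22.3 ± 1.21 TPM against 384 ± 18.8 TPM in Prol (TPM divide by gene length and so compare genes within a library). It went from 17.2, 18.2 and 17.1 CPM in Prol to 28, 28.6 and 24.8 CPM in Sen (IR) (log2 fold change 0.64, SE 0.07, adjusted p = 4.20e-08). CCCP did not move it past the threshold (26.0, 26.6 and 26.6 CPM, -0.04, 95% interval -0.17 to 0.09), but it was higher and past the threshold with library totals (0.22, adjusted p = 0.0025) and with TPM (0.39, adjusted p = 1.86e-05). Acetate took it to 33.8, 35.0 and 30.5 CPM (0.32, adjusted p = 1.34e-04) and both treatments to 34.3, 34.9 and 33.8 CPM (0.38, adjusted p = 2.35e-05).

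With mtDNA alone TNFRSF10A was at 29.1, 29.2 and 32.1 CPM, just above the CCCP group (0.19, adjusted p = 0.0403). That call was lost when Sen (IR) + CCCP replicate 1, 2 or 3, mtDNA replicate 3 or Prol replicate 1 was left out (adjusted p = 0.0512 to 0.167). It was also lost with library totals (0.12, adjusted p = 0.157), with TPM (0.12, adjusted p = 0.191) and with no filter on low counts (0.18, adjusted p = 0.164). TNFRSF10A shares 224 exonic bases with TNFRSF10A-AS1 on the other strand, which rose over the same groups, from 6.78 ± 0.163 CPM in Sen (IR) + CCCP to 8.19 ± 0.637 CPM with acetate and 9.62 ± 0.564 CPM with both.

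TNFRSF1A (TNFR1, chromosome 12, 6328757 to 6342114, minus strand) changed least, with group means from 111 to 148 CPM. Sen (IR) libraries, at 156, 152 and 136 CPM, lay above Prol at 132, 136 and 127 CPM (0.17, SE 0.06, adjusted p = 0.0145), a call that was lost without Prol replicate 1 or 3 or Sen (IR) replicate 1 or 2, and with no filter on low counts (adjusted p = 0.0684). CCCP lowered it to 120, 122 and 132 CPM (-0.25, adjusted p = 5.93e-04), but the sign turned with library totals (0.013) and with TPM (0.18). Acetate lowered it to 114, 109 and 110 CPM (-0.17, adjusted p = 0.0137), a call that was lost without Sen (IR) + CCCP replicate 3 or acetate replicate 2 or 3. With mtDNA it was at 134, 125 and 128 CPM (0.05, adjusted p = 0.608). With both it was at 114, 125 and 110 CPM, not past the threshold against Sen (IR) + CCCP (-0.10, adjusted p = 0.137). That change was past it without mtDNA + acetate replicate 2 (-0.14, adjusted p = 0.0386). It was also past it with library totals (-0.28, adjusted p = 5.23e-05) and with TPM (-0.23, adjusted p = 9.87e-04).

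**Figure D3:**
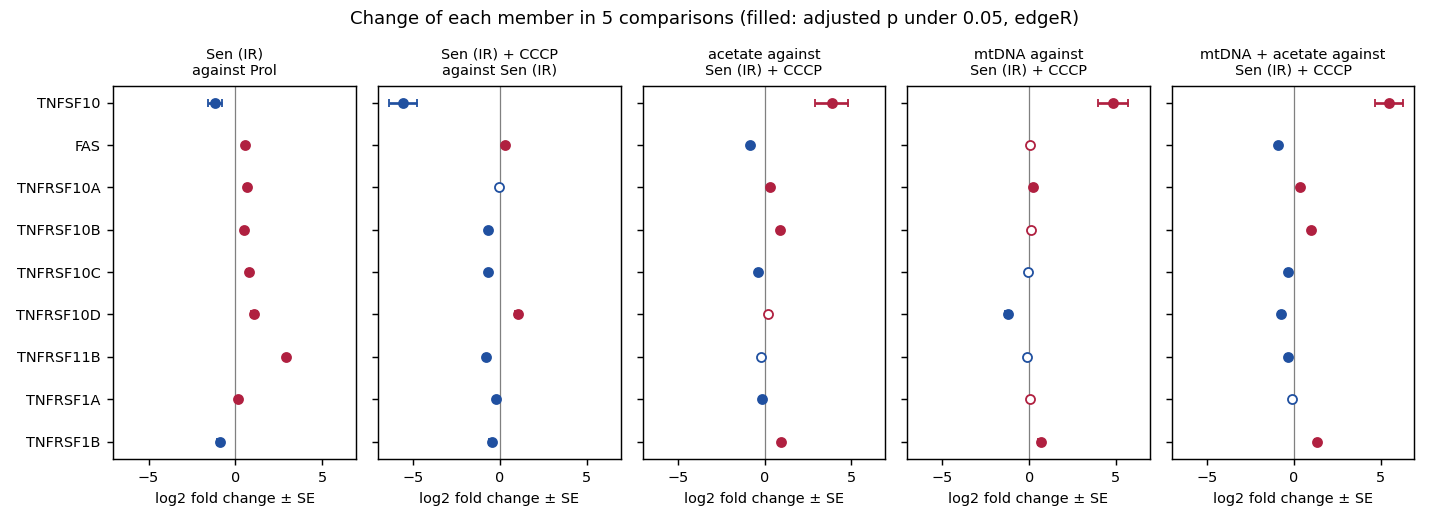
Fitted log2 fold change (horizontal axis) with its SE for each of the 9 genes (rows) in 5 comparisons; red is higher, blue lower, and filled points passed an adjusted p of 0.05 in edgeR. TNFSF10 falls by 5.60 with CCCP and rises with each addition, and TNFRSF10B and FAS take opposite sides with acetate.

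TNFRSF10D (TRAIL-R4, chromosome 8, 23135588 to 23164027, minus strand), the membrane decoy with a truncated death domain, rose at each of the first 2 steps. It was at 149, 151 and 148 CPM in Prol, 328, 340 and 274 CPM in Sen (IR) (log2 fold change 1.08, SE 0.16, adjusted p = 6.63e-06) and 655, 682 and 603 CPM in Sen (IR) + CCCP (1.04, SE 0.16, adjusted p = 5.88e-06). No library of one group overlapped those of the next. mtDNA took it back to 233, 332 and 269 CPM (-1.22, SE 0.16, adjusted p = 8.53e-06), and it was the 1 member that fell.

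Acetate libraries stood at 769, 765 and 724 CPM, above all CCCP libraries, yet the change was not past the threshold (0.22, adjusted p = 0.246). It was past it without mtDNA + acetate replicate 2 (0.23, adjusted p = 0.0192), with no filter on low counts (0.22, adjusted p = 4.31e-04) and in a fit of only the groups compared (0.20, adjusted p = 1.01e-04). With both treatments TNFRSF10D was at 479, 242 and 455 CPM. This was lower than with acetate alone (-0.94, SE 0.16, adjusted p = 3.77e-04; without replicate 2 -0.69, adjusted p = 1.93e-05) and lower than in Sen (IR) + CCCP (-0.72, adjusted p = 4.63e-04; without replicate 2 -0.46, adjusted p = 1.97e-04).

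TNFRSF11B (osteoprotegerin, chromosome 8, 118923557 to 118951885, minus strand), the soluble decoy, showed the largest change with senescence. It rose from 56.7, 55.0 and 52.0 CPM in Prol to 456, 438 and 355 CPM in Sen (IR) (2.93, SE 0.10, adjusted p = 2.24e-16), a 7.64-fold difference. CCCP lowered it to 232, 225 and 255 CPM (-0.81, adjusted p = 3.92e-08), still above Prol by 2.12 (adjusted p = 1.03e-14). Neither acetate (218, 208 and 202 CPM, -0.18, adjusted p = 0.0840) nor mtDNA (255, 193 and 212 CPM, -0.11, adjusted p = 0.447) moved it past the threshold, although the acetate change was past it in other fits. It was -0.30 with library totals (adjusted p = 0.00312) and -0.28 with TPM (adjusted p = 0.0205). It was also past the threshold with no filter on low counts (adjusted p = 0.00983), with only the groups compared (adjusted p = 3.38e-04) and without Sen (IR) replicate 3 (adjusted p = 0.0384). With both it was at 189, 176 and 199 CPM (-0.34, adjusted p = 0.00224).

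TNFRSF10C (TRAIL-R3, chromosome 8, 23102921 to 23117445, plus strand), the decoy anchored by a lipid, was scarce. It rose from 9.66, 10.6 and 9.17 CPM in Prol to 16.5, 18 and 16.6 CPM in Sen (IR) (0.80, adjusted p = 1.60e-06) and fell to 9.25, 11.2 and 11.5 CPM with CCCP (-0.67, adjusted p = 7.55e-06), a fall that was not past the threshold on the TPM scale (-0.25, adjusted p = 0.0547). Acetate lowered it to 8.61, 8.37 and 7.26 CPM (-0.41, adjusted p = 0.0032), and mtDNA left it at 8.78, 9.99 and 12.2 CPM (-0.04, adjusted p = 0.843). With both it was at 8.09, 9.14 and 8.05 CPM (-0.34, adjusted p = 0.0117), a call that was lost without Sen (IR) + CCCP replicate 2 or 3 or mtDNA + acetate replicate 1 or 3. The 4 TRAIL receptor genes lie together on chromosome 8 and have similar sequences. The deposited counts use uniquely mapped reads, so reads common to these genes are not in them.

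TNFRSF1B (TNFR2, chromosome 1, 12166991 to 12209228, plus strand), the TNF receptor without a death domain, followed the direction of TNFSF10 at each step, at low counts. It was at 9.0, 8.66 and 7.51 CPM in Prol, 4.32, 4.72 and 4.27 CPM in Sen (IR) (-0.92, adjusted p = 2.58e-06) and 2.51, 3.64 and 3.38 CPM in Sen (IR) + CCCP (-0.48, adjusted p = 0.00499). The fall with CCCP was not past the threshold with library totals (-0.22) or with TPM (-0.06). Acetate took it to 6.08, 6.43 and 5.73 CPM (0.94, adjusted p = 2.97e-06), mtDNA to 5.46, 5.46 and 4.30 CPM (0.67, adjusted p = 0.00159) and both to 7.36, 9.02 and 7.81 CPM (1.34, adjusted p = 1.47e-08). In none of these 3 comparisons with Sen (IR) + CCCP did the groups overlap.

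The makeup of the membrane TRAIL receptors shifted with these changes, described here as shares of the summed TPM of TNFRSF10A, TNFRSF10B, TNFRSF10C and TNFRSF10D within each library. TNFRSF10B was the main transcript in Prol, at 65.9% to 66.6% of the sum, and TNFRSF10D held 26.9% to 27.8%. In Sen (IR) + CCCP the order was turned, with TNFRSF10D at 63.2% to 65.2% and TNFRSF10B at 30.3% to 31.8%. The ratio of TNFRSF10D to TNFRSF10B was 0.414 ± 0.0093 in Prol, 0.621 ± 0.028 in Sen (IR) and 2.07 ± 0.083 in Sen (IR) + CCCP (SD, n = 3).

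Each addition lowered this ratio by another route. With acetate it was 1.32 ± 0.019, TNFRSF10B having risen, and with mtDNA it was 0.831 ± 0.126, TNFRSF10D having fallen. With both it was 0.761, 0.412 and 0.732 in the 3 libraries, where TNFRSF10D held 41.3%, 27.4% and 40.3% of the sum. Only replicate 2 came down to the share seen in Prol. The decoy TNFRSF10C never held more than 2.82% and TNFRSF10A never more than 5.82%.

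**Figure D4:**
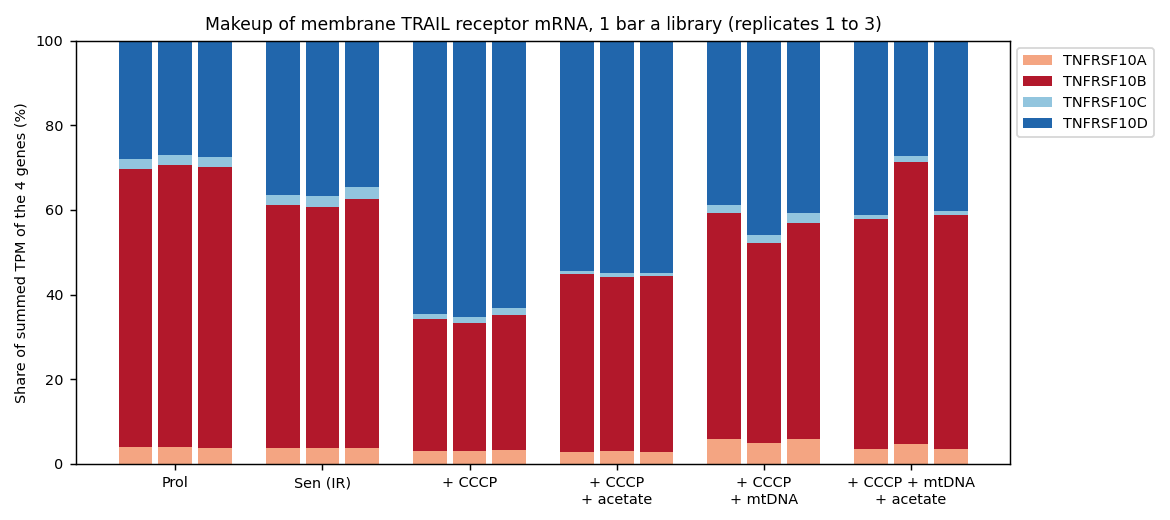
Share (%) of the summed TPM of the 4 membrane TRAIL receptor genes in each library, 1 stacked bar a library, in replicate order within each group. TNFRSF10D (dark blue) takes 63.2% to 65.2% after CCCP, against 26.9% to 27.8% in Prol, and less again with acetate, with mtDNA and with both.

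Adding mtDNA to acetate changed 3 members: TNFSF10 (1.64, adjusted p = 0.0255) and TNFRSF1B (0.40, adjusted p = 0.0336) were higher, 2 members against a background of 6.57%, and TNFRSF10D was lower, 1 against 6.0%. The TNFSF10 groups overlapped, and the change was 0.55 (adjusted p = 0.366) without mtDNA + acetate replicate 2, and no longer past the threshold without acetate replicate 2 or 3 either. It was also not past it by DESeq2's Wald test (adjusted p = 0.0574), with only the groups compared (adjusted p = 0.108) or with TPM (1.07, adjusted p = 0.137). The TNFRSF1B call was lost when any acetate library, or mtDNA + acetate replicate 2 or 3, was left out (adjusted p = 0.0544 to 0.132), and with library totals (0.34, adjusted p = 0.0593) or TPM (0.35, adjusted p = 0.0928). Without mtDNA + acetate replicate 2, or acetate replicate 2 or 3, TNFRSF10D was the 1 member called.

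Adding acetate to mtDNA changed 8 members, 4 higher (TNFRSF10A, TNFRSF10B, TNFRSF10D and TNFRSF1B; background 27.4%) and 4 lower (FAS, TNFRSF10C, TNFRSF1A and TNFRSF11B; background 29.9%). TNFRSF1B rose by 0.66 (adjusted p = 1.29e-04) with no overlap, and TNFRSF10A by 0.19 (adjusted p = 0.0163), though not past the threshold with library totals (0.08, adjusted p = 0.283) or TPM (0.13, adjusted p = 0.0754). TNFRSF10D was higher by 0.50 (adjusted p = 0.0107) with overlapping groups. That change was 0.76 without mtDNA + acetate replicate 2, and it was not past the threshold without mtDNA replicate 1 or mtDNA + acetate replicate 1 or 3 (0.34 to 0.40), with only the groups compared (adjusted p = 0.0751) or with TPM (0.39, adjusted p = 0.0966). The falls of TNFRSF10C (-0.30), TNFRSF1A (-0.15) and TNFRSF11B (-0.23) were of groups that overlapped, and each was lost in 4, 10 and 8 of the 18 fits that left out 1 library. TNFSF10 did not pass the threshold (0.67, adjusted p = 0.215), although it did with no filter on low counts (adjusted p = 6.32e-04), and its sign turned without mtDNA + acetate replicate 2 (-0.41).

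On the log2 scale, the interaction is the effect of mtDNA in cells given acetate less its effect in cells not given acetate. It was called for 0 of the 9 members in edgeR, where 0.0765% of all genes were called positive and 0.583% negative. At an unadjusted p under 0.05 edgeR counted 1 member, TNFSF10, and DESeq2's Wald test called 0. For TNFSF10 the interaction was -3.19 (95% interval -5.45 to -0.93, adjusted p = 0.262), and for TNFRSF10D it was 0.28 (interval -0.16 to 0.72, adjusted p = 0.685). Without mtDNA + acetate replicate 2 both were past the threshold, at -4.28 (adjusted p = 2.32e-04) and 0.53 (adjusted p = 0.0164). With no filter on low counts both were past it as well, at -3.19 (adjusted p = 5.62e-10) and 0.28 (adjusted p = 0.0404). Without mtDNA + acetate replicate 2 TNFSF10 rose less as a fold, and TNFRSF10D fell less, with mtDNA when acetate was present. The TNFSF10 interaction rests on the 8 counts of the Sen (IR) + CCCP group. It ranged from -4.63 to -2.52 when 1 library was left out. For TNFRSF10B (0.00, interval -0.14 to 0.14) and FAS (-0.11, interval -0.24 to 0.02) the interval of the interaction was narrow.

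Other genes of the pathway were taken from lists chosen from textbook knowledge with earlier results known. Of 9 other ligands, TNF, LTA, LTB, FASLG and TNFSF11 were too low to test. Of the 4 tested, TNFSF15 (TL1A, which binds the death receptor TNFRSF25) was at 9.32 ± 0.800 CPM in Prol, 47.0 ± 1.07 CPM in Sen (IR) and 1.32 ± 0.060 CPM with CCCP (-5.14, adjusted p = 2.38e-16), and rose with acetate (2.35, adjusted p = 8.43e-10) and mtDNA (1.17, adjusted p = 8.13e-04). TNFSF13B (BAFF, a B-cell survival factor) fell with acetate (-1.35, adjusted p = 0.00143) and rose with mtDNA (2.86, adjusted p = 3.39e-08). TNFSF14 (LIGHT) was at 0.968 ± 0.137 CPM in Sen (IR) and had 0 counts in every Prol and Sen (IR) + CCCP library.

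Of 6 other receptors tested, 4 fell and 1 rose with CCCP against Sen (IR), where 31.3% of all genes fell and 34.0% rose. With acetate 4 fell and 1 rose, against 28.3% and 28.8%. The falls with acetate included TNFRSF14 (-1.46, adjusted p = 1.09e-04) and TNFRSF12A, the TWEAK receptor (-0.88, adjusted p = 2.40e-08), and the rise was TNFRSF25 (0.53, adjusted p = 0.00307). With mtDNA 1 fell, TNFRSF25 (-0.76, adjusted p = 0.00265), and none rose, against 7.40% and 10.7%.

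Downstream, 12 adaptors and caspases were tested. With CCCP 8 fell and 1 rose (background 31.3% and 34.0%), the falls including BID, the link from caspase-8 to mitochondria (-1.14, adjusted p = 2.91e-14). With acetate 3 rose and 3 fell, shares near the background of 28.8% and 28.3%. MLKL, the effector of necroptosis, fell by 0.67 (adjusted p = 1.24e-05) and TRADD rose by 0.62 (adjusted p = 2.55e-04). With mtDNA 6 rose and none fell (background 10.7% and 7.40%), MLKL by 1.26 (adjusted p = 5.08e-09). With both, 4 rose and 1 fell against Sen (IR) + CCCP (background 30.3% and 31.4%), and without mtDNA + acetate replicate 2 the counts were 4 and none. TRADD was among those that rose (0.66, adjusted p = 1.54e-04).

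Of 12 inhibitors of death receptor signalling, all tested, 7 fell and 2 rose with CCCP against Sen (IR) (background 31.3% and 34.0%), the falls led by BIRC3 (cIAP2), a ubiquitin ligase that keeps RIPK1 from forming a death complex (-1.97, adjusted p = 1.14e-14). With acetate 9 rose, with mtDNA 9 and with both 11, against backgrounds of 28.8%, 10.7% and 30.3%. None fell, and 3, 3 and 1 did not pass the threshold. The list medians were 0.44, 0.26 and 0.66 (log2) against 0.01, 0.00 and -0.04 for all genes tested. Without mtDNA + acetate replicate 2 the count of 11 was 10. BIRC3 went from 15.6 ± 1.64 CPM to 73.2 ± 7.03 CPM with acetate (2.22, adjusted p = 3.13e-15), 43.8 ± 1.84 CPM with mtDNA (1.49, adjusted p = 6.87e-11) and 119 ± 2.92 CPM with both (2.93, adjusted p = 5.72e-17). CYLD, a deubiquitinase that opposes survival signalling despite its place on the list, rose with acetate (1.06, adjusted p = 2.04e-14), and TNFAIP3 (A20) rose with acetate (0.84, adjusted p = 1.23e-05) and with mtDNA (1.58, adjusted p = 1.34e-08).

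Of 8 p53 targets outside the members, 5 rose and 1 fell with acetate (background 28.8% and 28.3%), the rises led by GDF15 (2.40, adjusted p = 3.33e-15), RRM2B (0.82, adjusted p = 5.60e-13) and CDKN1A (0.75, adjusted p = 2.81e-11). The list median was 0.29 (log2). TNFRSF10B, at 0.88, and FAS, at -0.84, lay on either side of it. Of the other membrane TRAIL receptors, TNFRSF10A was at 0.32 and TNFRSF10C at -0.41, and TNFRSF10D, at 0.22, did not pass the threshold. With CCCP against Sen (IR) 7 of the 8 rose and none fell (background 34.0% and 31.3%). TNFRSF10B and TNFRSF10C fell, FAS and TNFRSF10D rose, and TNFRSF10A did not pass the threshold.

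Ordering the 6 groups by their mean level gives 5 neighbouring pairs for each gene, and 16 of these 45 pairs differed past the threshold. This count was not made over all genes, so it has no background share beside it. For TNFSF10 only the ends were separated: Prol from Sen (IR), and acetate from Sen (IR) + CCCP. For FAS the upper levels, mtDNA and Sen (IR) + CCCP, did not differ (adjusted p = 0.520), nor did the lower ones, acetate, Prol and both. TNFRSF10B fell from both and acetate (not separated), through Sen (IR), to Prol, mtDNA and Sen (IR) + CCCP, where neither neighbouring pair was separated. For TNFRSF10D the order ran from acetate and Sen (IR) + CCCP, through both, Sen (IR) and mtDNA, to Prol. Neighbouring pairs among both, Sen (IR) and mtDNA were not separated, although both and mtDNA differed (0.50, adjusted p = 0.0107). Pairs of groups outside the comparisons above were also tested in either direction. Against Prol, 8 members differed with acetate (background 66.5%), 6 with mtDNA (70.7%) and 6 with both (66.8%). Against Sen (IR), 9 differed with acetate (65.9%), 6 with mtDNA (67.5%) and 7 with both (66.9%), and 5 differed between mtDNA and acetate (61.3%).

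The genes most like each member were those with the smallest root-mean-square difference over the 6 centred group means of log2 CPM. For TNFSF10 they were GBP1 (0.86), CD74 (0.87) and RARRES3 (0.89), far from a close match but small beside its own range of 6.17. For FAS they were PES1 (0.02), ALG1 (0.04) and RPA2 (0.04), with a range of 0.95. For TNFRSF11B they were TRPA1 (0.18), PARM1 (0.19) and ADCY10 (0.20), with a range of 2.92, and for TNFRSF10B NEDD4L (0.06) and ANO10 (0.07) came first, with a range of 0.97. For TNFRSF10A they were CHPT1 (0.05), WDR78 (0.05) and IFNGR1 (0.07), and for TNFRSF10C IDI1 (0.04), YIPF3 (0.06) and ZNHIT6 (0.06). For TNFRSF1A they were XAB2 (0.03), PCNX3 (0.04) and GOT2 (0.04), and for TNFRSF1B NFIL3 (0.12) came first. The nearest to TNFRSF10D, AC005393.1, lay 0.21 away, beside a range of 2.34. These are descriptions over 6 group means, with no test.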

How the data were processed

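RNA-seq of polyA RNA from 18 libraries was used. The authors deposited raw counts per gene: Trimmomatic 0.36 was used for trimming, STAR 2.5.2b for alignment (GRCh38), and featureCounts of Subread 1.5.2 for counting reads with a unique position in exons. The authors also deposited TPM, which correct counts for gene length and library size and were used to compare genes within a library and as an alternative scaling. Whether counting used the strand is not given in the sources used here. Each column was matched to its library by name, with 0 columns left over.

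edgeR 4.0.16 (R 4.3.3) fitted all 18 libraries together, with a mean for each of 6 groups, by quasi-likelihood, with TMM scaling, filterByExpr (16994 of 57500 genes kept) and no replicate block, and Benjamini-Hochberg adjustment over all genes tested at 0.05. CPM use TMM-scaled totals. Intervals of log2 fold changes are 95% by a normal approximation, with the SE taken from the statistic of the test. They leave out the degrees of freedom of the test, so they are somewhat too narrow. Total counts per library had a median of 29620505.5, and their size limits what can be seen of genes near 1 CPM or lower. The 9 members, the gene lists and the tests were chosen with earlier results of these data known. Named by rule were all 9 members, per list and comparison at most the 4 genes with the largest called changes, label genes, and the 3 genes most like each member. Levels of TNFSF14 and of genes that overlap members, and the name IFIT1, were added after their values were seen.

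Alternatives were DESeq2 1.42.0 (its size factors, its Wald test, and the study's rule of nominal p under 0.05 with an absolute log2 change over 0.5), no filter, at least 10 counts in every library, removal of genes encoded in mtDNA, fits to the compared groups alone, a replicate block and each library left out. The scalings by library totals and by the deposited TPM (log2(TPM + 0.5), limma 3.58.1), and list counts without mtDNA + acetate replicate 2, were chosen after seeing the data. The fits were run on simulated counts with the same spread for all genes and changes placed only in better expressed genes. That run does not cover genes at counts as low as TNFSF10 with CCCP, or a library that stands apart. Gene positions come from GENCODE on GRCh38. Values of some genes on the lists are not reported here.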

Additional observations from a re-analysis of the deposited data

Results flagged for a closer look

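Among the members and the pathway lists, 2 inhibitor genes had an effect of mtDNA that differed with acetate, by edgeR's test of the interaction over all genes. For BIRC3 the interaction on the log2 scale was -0.77 (SE 0.11, adjusted p = 0.00141). mtDNA took it from 15.6 to 43.8 CPM without acetate and from 73.2 to 119 CPM with it. With acetate the rise was thus smaller as a fold but larger in CPM. For RBCK1, a subunit of the linear ubiquitin ligase, it was -0.61 (SE 0.13, adjusted p = 0.0254), with means of 45.3 and 78.8 CPM without acetate and 64.3 and 73.7 CPM with it. mtDNA + acetate replicate 2 stands apart from the other libraries of its group, and without it 4 of the 12 inhibitors had a negative interaction past the threshold. Over all genes that fit called 331 negative and 72 positive. The fit with every library called 99 negative (0.583% of genes tested) and 13 positive (0.0765%).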

How the results depend on the processing

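The study's rule (nominal p and a minimum change) called 5 members for CCCP against Sen (IR), 4 for acetate, 5 for both against Sen (IR) + CCCP, 4 for both against mtDNA, 1 for the interaction and 8 separated neighbours in the order of levels (8, 7, 8, 8, 0 and 16 as reported). By the same rule TNFSF10, TNFRSF10B and TNFRSF1A were not called for Sen (IR) against Prol, where all 9 members were called as reported. It also did not call TNFRSF10B for CCCP against Prol, TNFRSF10A for mtDNA or TNFRSF1B for both against acetate. For both against acetate, TPM called 1 member and leaving out 1 library 1 to 3. For both against mtDNA, DESeq2's Wald test and median-centred TPM called 5 and the fit to the groups compared called 4, and leaving out 1 library gave 4 to 8. For the interaction, no filter called 2, and leaving out 1 library 0 to 2. The causes were not tested. No paired analysis was implied by the labels: same-numbered libraries correlated at -0.07 to 0.04 in their deviations, and with the replicate number as a replicate block all 81 member results kept their direction and side of the threshold (16 separated neighbours, as without it). The filter of at least 10 counts left TNFSF10 untested.

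With library totals alone and with TPM, signs turned for CCCP against Sen (IR) in TNFRSF10A (0.22 and 0.39) and TNFRSF1A (0.013 and 0.18), for CCCP against Prol in TNFRSF10B (0.15 and 0.30) and TNFRSF1A (0.28 and 0.43), and for mtDNA in FAS (-0.018 and -0.024) and TNFRSF1A (-0.018 and -0.023). TNFRSF10A turned with library totals for both against acetate (-0.0027). Median-centred TPM turned none of the 81 member results. Among changes not past the threshold, leaving out 1 library turned TNFRSF10A with CCCP (-0.098 to 0.011) and for both against acetate (-0.0021 to 0.099), TNFRSF10C with mtDNA (-0.17 to 0.070) and for both against acetate (-0.012 to 0.11), TNFSF10 for both against mtDNA (-0.41 to 1.09), and the interactions of TNFRSF10B (-0.033 to 0.034), TNFRSF10C (-0.0054 to 0.24), TNFRSF11B (-0.14 to 0.064) and TNFRSF1A (-0.032 to 0.051).

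Over all genes, the share of calls that were higher moved from 47.1% with TMM to 58.2% with library totals for Sen (IR) against Prol. With library totals and TPM it moved from 52.1% to 70.6% and 78.8% for CCCP against Sen (IR), from 50.8% to 72.2% and 78.9% against Prol, from 50.5% to 37.0% and 39.6% for acetate, from 59.1% to 35.7% and 34.3% for mtDNA and from 49.1% to 32.3% and 36.0% for both. For both against acetate it moved from 52.2% to 64.7% with DESeq2's size factors, 63.2% with centred TPM, 29.1% with library totals and 35.5% with TPM, for both against mtDNA from 47.9% to 36.2% with library totals, and for the interaction from 11.6% to 24.7% with TPM and 24.3% with centred TPM. The study's rule called 5709, 7380, 5522, 1758, 6460, 1290 and 5760 genes where edgeR called 9628, 11088, 9709, 3071, 10487, 2136 and 9748 (Sen (IR) against Prol, CCCP, acetate, mtDNA, both, both against acetate, both against mtDNA). Leaving out acetate replicate 2 or 3 gave 1241 or 1296 genes for both against acetate. For the interaction, the count of 112 became 284 with DESeq2, 622 by the study's rule, 413 without a filter, 74 with centred TPM, and 55 to 403 when 1 library was left out, the highest without mtDNA + acetate replicate 2.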

Other observations

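Among the 3 mtDNA libraries, the order in TNFSF10 was that of the interferon-stimulated genes and the reverse of that in TNFRSF10D. Of these mtDNA libraries, replicate 1 had the most TNFSF10 (3.51 CPM), the highest interferon sum (6358 CPM) and the least TNFRSF10D (233 CPM), and replicate 2 had the least TNFSF10 (1.04 CPM), the lowest sum (4396 CPM) and the most TNFRSF10D (332 CPM). In mtDNA + acetate, replicate 2 had the most TNFSF10 (8.24 CPM) and the least TNFRSF10D (242 CPM) with a sum of 5061 CPM. Its replicates 1 and 3 did not keep that order: TNFSF10 was at 1.88 and 1.54 CPM and TNFRSF10D at 479 and 455 CPM, with sums of 1534 and 1601 CPM. These are 6 libraries in 2 groups, too few for a correlation within a group, and the pattern was seen before it was described. In the Prol libraries TNFSF10 was at 8.26 to 9.86 CPM, its highest group level, with a sum of 513 to 528 CPM. A link between TNFSF10 and the interferon sum was not tested.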
